A study of Mus musculus with 3 samples.

Results

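Interferon-stimulated cells of 3 mouse mammary tumours were described here: cells rich in transcripts of Isg15, Ifit1, Ifit3 and Mx1. They also met limits on Col1a1, Adgre1, Cx3cr1, Pecam1 and Cdh5, which are genes of fibroblasts, macrophages and vessels. They were chosen by their own counts. A cell needed at least 5 transcripts summed over the 4 genes (the 4-gene sum), Col1a1 under 10% of its panel transcripts, no Adgre1 or Cx3cr1 and at most 1 transcript of Pecam1 and Cdh5 together. Of 1747403 cells kept, 30807 met the rule (1.76%) and are called members. They were compared with 533167 comparison cells of the same sections, which had at least 1 transcript of Cdh1, the adhesion molecule of epithelial cells, and none of the 4 genes. The samples were formalin-fixed, paraffin-embedded tumours titled MMTV-PyMT WT, replicates 1 to 3, with no treatment. In this mouse model the viral MMTV promoter drives the polyoma middle T oncogene in mammary epithelium. The labels say neither what WT refers to nor the animals' age and strain. All 3 tumours form 1 group, so each comparison set cells against other cells of the same tumour, with the 3 tumours as replicates.

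Interferons are cytokines that cells release when they sense viral or misplaced nucleic acids. Type I interferons signal through a cell surface receptor to transcription factors that bind interferon-stimulated response elements near the start of their target genes. Isg15 encodes a ubiquitin-like modifier, Ifit1 and Ifit3 encode proteins that bind foreign RNA or the complexes that do so, and Mx1 encodes an antiviral GTPase. Irf7, itself a target, encodes a transcription factor that amplifies interferon production. In tumours the same programme also covers antigen presentation and ligands of immune checkpoints.

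The sequences before the start sites of 3 of the genes that define the members are shown because they carry the element through which such genes are known to be induced. RefSeq (GRCm38.p6) gives the 250 bases before the annotated start of Isg15 at chr4:156200819-156201068 on the minus strand, of Ifit1 at chr19:34640639-34640888 on the plus strand and of Ifit3 at chr19:34583279-34583528 on the plus strand. Capitals mark the core of the response element, GAAANNGAAA, on either strand. Overlapping matches were joined.
Isg15: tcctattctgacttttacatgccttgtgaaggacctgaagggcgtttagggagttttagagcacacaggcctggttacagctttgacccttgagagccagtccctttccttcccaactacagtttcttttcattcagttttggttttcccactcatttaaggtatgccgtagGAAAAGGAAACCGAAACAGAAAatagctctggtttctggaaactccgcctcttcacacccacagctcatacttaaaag
Ifit1: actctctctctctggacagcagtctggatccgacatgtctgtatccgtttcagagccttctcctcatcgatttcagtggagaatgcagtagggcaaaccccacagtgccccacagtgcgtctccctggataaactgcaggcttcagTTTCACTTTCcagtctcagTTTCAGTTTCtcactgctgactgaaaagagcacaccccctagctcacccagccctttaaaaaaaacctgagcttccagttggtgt
Ifit3: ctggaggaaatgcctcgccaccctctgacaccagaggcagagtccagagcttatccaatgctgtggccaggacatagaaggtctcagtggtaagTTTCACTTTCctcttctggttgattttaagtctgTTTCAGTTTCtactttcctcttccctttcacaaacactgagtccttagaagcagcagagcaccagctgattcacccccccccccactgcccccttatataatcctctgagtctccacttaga
Isg15 held 3 overlapping matches, the nearest beginning 66 bases before the start site. Ifit1 held 2, beginning 104 and 85 bases before it, and Ifit3 held 2, beginning 156 and 122 bases before it. In windows of 300 bases, from 250 before to 50 after the start site, 1131 of 32851 RefSeq promoters held a match (3.44%). Counted by gene, a match was present for 3.99% of 27025 genes and for 12 of the 183 panel genes in the table (6.56%). Of 14 genes, which are Isg15, Ifit1, Ifit3, 9 genes of the interferon list, H2-K1 and H2-Q6, 4 held a match: Isg15, Ifit1, Ifit3 and Cxcl10. No match was present in the windows of Irf7, Irf9, Irf1, Cd274 or H2-K1, which says only that these letters are not there. Mx1 was not among the sequences used.

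Transcripts were read in place on the MERSCOPE platform, which images single RNA molecules over many rounds of probe binding and counts them in outlined cells. The tables hold 258 genes and 27 blank codes that match no gene and so measure false decoding. Kept cells held 20 or more panel transcripts and measured between 50 µm3 and 3 times the median volume of their section. Tumours 1, 2 and 3 kept 619770, 453995 and 673638 cells with medians of 98, 106 and 94 panel transcripts, and blanks made up 0.481% to 0.503% of all counts. A gene counts as above background if every section gave it a larger total than its highest blank, as 134 genes did. Levels below are counts per 1000 transcripts of the 248 panel genes that the rule did not read. They are not corrected for probe number or gene length, so each gene is compared only with itself.

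Members made up 0.276% of kept cells in tumour 1, 2.16% in tumour 2 and 2.86% in tumour 3. Those shares stand for 1712, 9825 and 19270 cells, with exact binomial 95% intervals of 0.263% to 0.290%, 2.12% to 2.21% and 2.82% to 2.90% that cover counting error only. Tumour 1 thus stood well below the others. Cells with at least 5 transcripts of the 4 blanks with the highest totals, passing the same limits on other genes, numbered 14, 131 and 243. The members' counts were far larger than these in every tumour. Of all cells with a 4-gene sum of 5 or more, the limits on Col1a1, macrophage and endothelial transcripts removed 19.6%, 15.3% and 8.50%. The same limits would remove 22.8%, 23.9% and 13.7% of all kept cells.

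The 4 genes did not contribute equally, and their mixture differed between the tumours. Isg15 gave 58.3%, 47.8% and 35.2% of the members' 4-gene transcripts in tumours 1, 2 and 3, while Mx1 gave 20.5%, 29.7% and 42.0%. Ifit1 held a near constant part of 15.6% to 15.9%, and Ifit3 the smallest, 5.57% to 7.08%. As levels, Isg15 stood at 28.7, 31.2 and 28.2 and Mx1 at 10.1, 19.4 and 33.5 in the members of tumours 1, 2 and 3. Isg15 was thus close to even between tumours, while the Mx1 of tumour 3 was the highest of the 3. Most members carried several of the genes: all 4 were detected in 11.5%, 23.2% and 28.3% of them, and only 1 in 12.1%, 7.41% and 4.19%. Over all kept cells, the total of Ifit3 was above the highest blank in 1 section and those of Ifit1 and Mx1 in 2, and Isg15 was above it in all 3.

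Most members lay near the threshold. The median 4-gene sum was 6, 7 and 8 in tumours 1, 2 and 3, and the highest was 52, 139 and 157. Cells just inside, with a sum of 5, numbered 564, 2350 and 4208, and their Irf7 level was 51.4, 46.96 and 45.4. Cells just outside, with a sum of 4, numbered 881, 3880 and 6214, with Irf7 at 44.9, 40.5 and 39.96. Cells on both sides of the threshold thus had similar levels.

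Markers bear out an epithelial makeup only in part. Cdh1 was detected in 66.998%, 50.8% and 44.4% of members. Among cells that passed the same limits on other genes but had none of the 4 interferon-stimulated transcripts, the shares were 48.2%, 41.8% and 30.7%. All kept cells had medians of 98, 106 and 94 panel transcripts, below those of members given next. A deeper cell shows a Cdh1 transcript more readily, and the part of depth in these shares was not tested. Members held more transcripts in all than comparison cells, with medians of 159, 155 and 135 against 119, 139 and 131 panel transcripts, and were larger, with median volumes of 739, 807 and 739 µm3 against 607, 723 and 680 µm3. The 7 epithelial markers other than Cdh1 summed to levels of 54.3, 59.1 and 60.8 in members and 74.7, 74.2 and 65.4 in comparison cells, which Cdh1 itself had chosen, while cells with at least 10% Col1a1 had 38.5 to 40.4. Cells with at least 2 transcripts of Adgre1 or Cx3cr1 had 68.5, 63.1 and 62.1, above members in every tumour, so this sum does not set members apart from them. Gata3, the luminal transcription factor, stood at 34.6, 46.9 and 24.7 in members against 41.6, 55.8 and 28.9 in comparison cells, 32.7, 44.7 and 24.6 in the cells with Adgre1 or Cx3cr1 and 17.2 to 25.9 in the cells with high Col1a1. No listed marker separates tumour cells from normal epithelium, and the cells are called members in what follows.

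Adgre1 and Cx3cr1 were at 0 by the rule. The 5 other macrophage markers summed to 4.75, 9.88 and 8.66 in members and 4.25, 5.69 and 6.22 in comparison cells. Cells with at least 2 transcripts of Adgre1 or Cx3cr1 had 5.86, 6.50 and 7.59, so in tumours 2 and 3 members were above them. Most of that came from Cd14, which myeloid cells express but which was also present at 3.44 to 5.38 in comparison cells. Dendritic markers (2 genes) summed to 0.647 to 1.44 in members and 0.494 to 1.502 in comparison cells, against 2.90 to 9.59 in cells with at least 2 Adgre1 or Cx3cr1 transcripts. The 11 T or NK cell markers summed to 2.56 to 2.84 in members and 2.21 to 2.76 in comparison cells, and the 3 neutrophil markers to 0.941 to 1.203 in members and 0.819 to 1.09 in comparison cells. In the test described next, Lyve1, S100a8, Havcr2 and Ifng of these lists were higher in members and Cd163 lower, and none of the 5 was above background. The 6 fibroblast markers other than Col1a1 summed to 2.95 to 5.74 in members, 5.08 to 8.26 in comparison cells and 33.9 to 58.2 in cells with high Col1a1. The part of such RNA in the results below was not tested beyond the alternatives named with them.

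The first comparison asked which genes outside the rule differed between members and comparison cells. Counts were summed per tumour and kind of cell and tested with edgeR's quasi-likelihood test, with the tumour as a block and Benjamini-Hochberg adjustment over the 248 genes. The rule read none of these genes, but they were measured in the same cells. Irf7 stood far above all others, and Irf9, Irf1 and H2-K1 also rose. Among the genes that fell were Mki67, Ccnd1, Krt14, Trp63 and Col4a1.

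Over all genes tested, 24 were higher in members (9.68%) and 9 lower (3.63%), and 4 of the 24 and 7 of the 9 were above background. The median over all 248 genes was a log2 change of -0.01. Of the 10 interferon genes on the panel outside the rule, 7 were higher, with a median log2 change of 0.73, beside 9.68% of all genes. Of the 7, Irf7, Irf9 and Irf1 were above background. Cd274, Cxcl10, Ifng and Cxcl9 were not, and 18.5% of the blanks were also called higher. Counted with the 10, only Irf1, Irf3, Irf7 and Irf9 were above background.

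Irf7 was at 58.6, 60.5 and 58.5 counts per 1000 in the members of tumours 1, 2 and 3, against 2.70, 5.31 and 3.69 in comparison cells. Members held nearly the same level in all 3 tumours, and the lowest member value lay far above the highest comparison value. The means were 59.2 ± 1.16 in members and 3.90 ± 1.32 in comparison cells (SD, n = 3), and the log2 change was 4.04 ± 0.23 (SE, adjusted p = 0.00791). Against comparison cells within 50 µm of a member only, it was 2.19 (adjusted p = 0.000277).

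Irf9, a transcription factor of the type I interferon response, was at 7.09, 6.92 and 7.99 in members against 2.20, 2.96 and 2.64 in comparison cells. The groups did not overlap, and the log2 change was 1.57 ± 0.15 (adjusted p = 0.0150). It stayed past the threshold under each of 15 other ways of choosing cells or fitting and without tumour 3, but missed it without tumour 1 (adjusted p = 0.0667) or tumour 2 (adjusted p = 0.0544). Irf1, a transcription factor that interferons induce, was at 10.97, 11.95 and 15.5 in members against 7.35, 7.50 and 7.92 in comparison cells. Its log2 change was 0.80 ± 0.12 (adjusted p = 0.0277), and without tumour 1 or 2 the adjusted p was 0.0780 or 0.119. Irf3 encodes a transcription factor that is present before any signal and is activated by phosphorylation. Irf3 stood at 1.10, 1.39 and 0.947 in members against 1.73, 1.72 and 1.24 in comparison cells (log2 change -0.39, adjusted p = 0.171).

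H2-K1, a heavy chain of MHC class I that presents peptides to CD8 T cells, differed more between tumours than between kinds of cell. It was at 20.6, 15.8 and 8.23 in members against 12.4, 9.59 and 5.05 in comparison cells. Within each tumour the member value was the higher, so the paired log2 change was 0.78 ± 0.08 (adjusted p = 0.0150), although the 2 ranges overlap. Without tumour 1 or tumour 2 its adjusted p was 0.0667 or 0.117, and for members over 25 µm from cells that fail the limits on other genes it also missed the threshold. The class II genes on the panel did not pass the test: H2-Aa averaged 0.950 in members and 0.955 in comparison cells, and H2-Eb1 0.194 and 0.204.

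**Figure D1:**
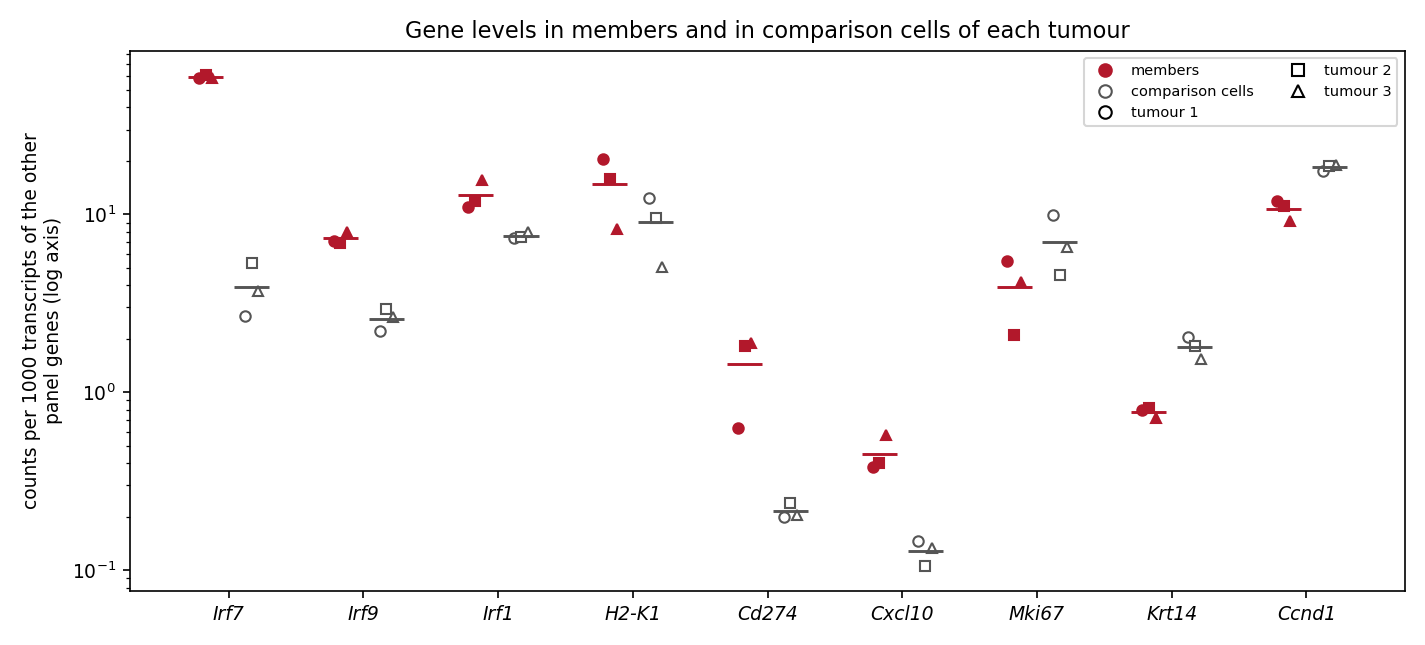
Levels of 9 genes in members (filled) and comparison cells (open) of each tumour, as counts per 1000 transcripts of the other panel genes on a log axis, with a line at the mean of 3 tumours. Irf7 is at 58.5 to 60.5 in members and 2.70 to 5.31 in comparison cells, while Mki67, Krt14 and Ccnd1 lie lower in the members of each tumour.

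Cd274 and Cxcl10 rose by more than most genes, from totals that were not above background over the section. Cd274 encodes PD-L1, the ligand of the T cell checkpoint receptor PD-1, and was at 0.631, 1.83 and 1.89 in members against 0.200, 0.239 and 0.203 in comparison cells. Its log2 change was 2.69 ± 0.37 (adjusted p = 0.0215), and its level in members was above that of the highest blank there, 0.422, 0.468 and 0.320. Without tumour 2 its adjusted p was 0.0686, and for members over 25 µm from cells that fail the limits it also missed the threshold. Cxcl10, a chemokine that draws T cells, was at 0.381, 0.401 and 0.572 in members, below the highest blank in tumours 1 and 2, against 0.146, 0.106 and 0.133 in comparison cells. Its log2 change was 1.895 ± 0.17 (adjusted p = 0.0150). Ccl5, another T cell chemokine, was at 0.209, 0.494 and 0.411 against 0.153, 0.100 and 0.104 and missed the threshold (log2 change 1.76 ± 0.39, adjusted p = 0.0570).

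The other low genes call for care, since blanks moved as well. When the 27 blanks were put into the same fit, 5 were higher in members (18.5%) and none lower, with log2 changes from -0.22 to 1.04. Of the 20 higher genes that were not above background, 9 had a log2 change over that of every blank, and 4 of these also had a level above every blank in the members of all 3 tumours: Cd274, Ccr2, H2-T10 and H2-Q6. The last 3 were singled out after their values were seen. H2-T10 and H2-Q6 are further class I heavy chains, with log2 changes of 1.22 ± 0.12 and 1.47 ± 0.18 (adjusted p = 0.0150 and 0.0173). Ccr2, a chemokine receptor of monocytes, had 1.26 ± 0.15 (adjusted p = 0.0173). Cxcl9 and Ifng, also of the interferon list, were called at levels of 0.0921 and 0.0801 in members, which are below the highest blank, and no more is read from them here. The interferon gene Ifnb1 and Cxcl11 were below the highest blank in members and did not pass the test.

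Of the 6 chemokines on the list none passed the test (median log2 change 0.32). Of 9 genes of NF-kB signalling, Il1a alone was higher, at a level of 0.134 in members that is below the highest blank. Rela stood at 14.2 in members and 14.8 in comparison cells on average, Nfkb1 at 9.49 and 10.2, and Nfkbia at 2.88 and 2.83. Of 7 stress and AP-1 genes and 5 secretory genes none passed the test either. Atf3, a stress-induced repressor, had the largest difference of these at 1.09, 2.84 and 5.88 in members against 1.60, 1.17 and 2.39 in comparison cells, and it went the other way in tumour 1 (log2 change 0.77 ± 0.45, adjusted p = 0.308).

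Of the 5 genes of basal epithelial cells, Krt14 and Trp63 fell and the median log2 change was -1.09. Krt14, a basal keratin, was at 0.799, 0.814 and 0.722 in members against 2.04, 1.82 and 1.53 in comparison cells. The ranges did not overlap, and the log2 change was -1.13 ± 0.15 (adjusted p = 0.0196). Trp63, the transcription factor that maintains basal cells, averaged 0.689 ± 0.270 in members and 1.22 ± 0.335 in comparison cells (log2 change -0.79 ± 0.15, adjusted p = 0.0452). Krt5, the partner of Krt14, was at 2.49, 2.16 and 1.29 in members against 7.61, 3.26 and 4.44 in comparison cells and just missed the threshold (log2 change -1.27 ± 0.28, adjusted p = 0.0553).

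Of the 2 proliferation genes, Mki67 fell. Mki67, present in cycling cells, was at 5.44, 2.10 and 4.20 in members against 9.94, 4.58 and 6.55 in comparison cells. Tumours differed more than the kinds of cell did, and within each tumour the member value was the lower (log2 change -0.82 ± 0.15, adjusted p = 0.0396). Ccnd1, a cyclin of the G1 phase, was at 11.945, 11.2 and 9.20 in members against 17.5, 18.7 and 18.998 in comparison cells (log2 change -0.71 ± 0.12, adjusted p = 0.0343). Top2a, the other proliferation gene, did not pass the test (log2 change -0.31 ± 0.25). Set against comparison cells within 50 µm of a member, Mki67 and Ccnd1 no longer passed (adjusted p = 0.108 and 0.0663), and neither did Trp63 (adjusted p = 0.0964). Mki67 also missed the threshold when members were limited to those with Cdh1, which all comparison cells have. With this and at least 100 and under 200 transcripts outside the rule in both kinds of cell, Mki67, Ccnd1 and Trp63 missed it. These genes passed with that depth limit alone, and when comparison cells also met the members' limits on other genes. They passed as well when Cdh1, the depth limit and those limits were set together. The alternatives with those limits on comparison cells were added after seeing the data.

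Col4a1, a collagen of basement membranes, averaged 11.7 ± 3.98 in members and 18.6 ± 6.48 in comparison cells (log2 change -0.61 ± 0.07, adjusted p = 0.0173). The fibroblast genes Pdgfra and Postn fell by 0.79 and 0.74 on the log2 scale (adjusted p = 0.0429 and 0.0487). Members had been limited in Col1a1 by the rule while 11.6% to 20.6% of comparison cells fail one of its limits. When comparison cells met the same limits, Col4a1 and Postn missed the threshold. Without tumour 1 or without tumour 2, none of the 7 falls named here passed.

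Within gated cells that had Cdh1, the mean levels of Irf7, Irf9, Irf1 and Cd274 rose with each step of the 4-gene sum. From sums of 0, 1 to 2, 3 to 4, 5 to 9, 10 to 19 and 20 or more, mean Irf7 over the tumours was 4.07, 9.58, 33.1, 50.7, 65.0 and 80.5. Irf9 went through 2.66, 3.25, 5.43, 6.78, 7.66 and 9.15, Irf1 through 7.71, 7.85, 8.96, 10.4, 13.3 and 22.0, and Cd274 through 0.206, 0.254, 0.439, 0.695, 1.502 and 3.95. Irf7 made its largest step between sums of 1 to 2 and 3 to 4, which are non-members, while Irf1 and Cd274 climbed mainly above 10. H2-K1 was 9.08 at a sum of 0 and 16.5 at 20 or more on average, but in tumour 1 it peaked at sums of 5 to 9. In tumour 3 Irf1 was at 8.02 at a sum of 0 and 7.81 at 1 to 2. The Cd274 values of 0.206 and 0.254 are below the highest blank level of comparison cells, 0.382. Deeper cells reach a higher sum: the median of transcripts outside the rule was 121 at a sum of 0 and 189 at 20 or more. The part of depth in this trend was not tested; in the test above, limiting both kinds of cell to at least 100 and under 200 such transcripts left the Irf7 change at 4.06. The highest class held 31 cells in tumour 1, 560 in tumour 2 and 1268 in tumour 3.

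**Figure D2:**
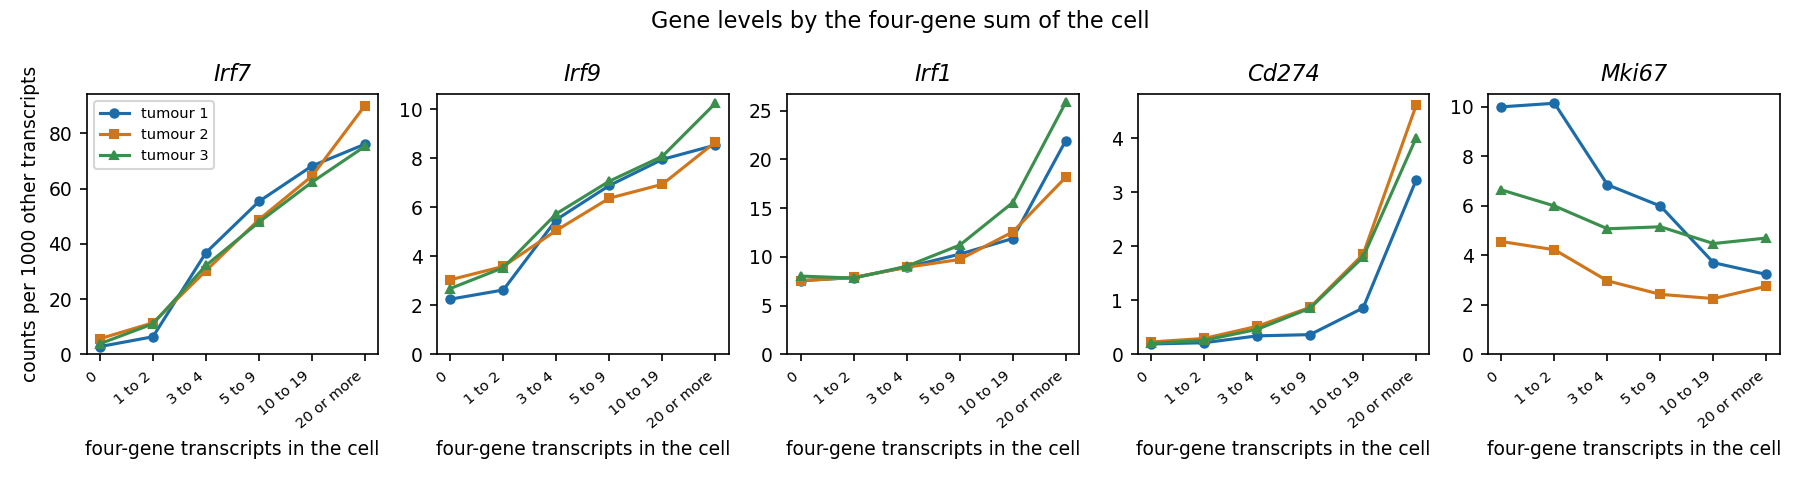
Levels of Irf7, Irf9, Irf1, Cd274 and Mki67 (counts per 1000 other transcripts) in Cdh1-positive cells that pass the limits on other genes, by the number of transcripts of the 4 interferon-stimulated genes in the cell, with a line per tumour. Irf7 has means of 4.07 in cells without any of the 4 genes and 80.5 in cells with 20 or more, and Mki67 means of 7.06 and 3.56.

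Members lay in patches. A patch is a set of members linked wherever 2 centres lie within 25 µm, and position was not part of the rule. Patches of at least 10 members held 72.2%, 67.9% and 85.4% of the members of tumours 1, 2 and 3 and numbered 17, 112 and 162. Lone members, with no other within 25 µm, were 13.03%, 11.9% and 5.24%. These shares depend on the link: the mean over tumours was 75.2% ± 9.11 at 25 µm, 51.3% at 15 µm and 89.0% at 50 µm.

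In tumour 1 a single patch of 723 members held 42.2% of all members of that section and spanned 654 µm. The next largest held 83. In tumour 2 the largest patch held 959 members (9.76%) over 813 µm, and in tumour 3 it held 2141 (11.1%) over 1179 µm. Patches were not made of members alone, since 23.7%, 64.2% and 36.5% of the kept cells within 25 µm of these 3 largest patches, their own members included, were members. The median patch of at least 10 held 22, 21 and 28.5 members and spanned 98.2, 112 and 107 µm.

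**Figure D3:**
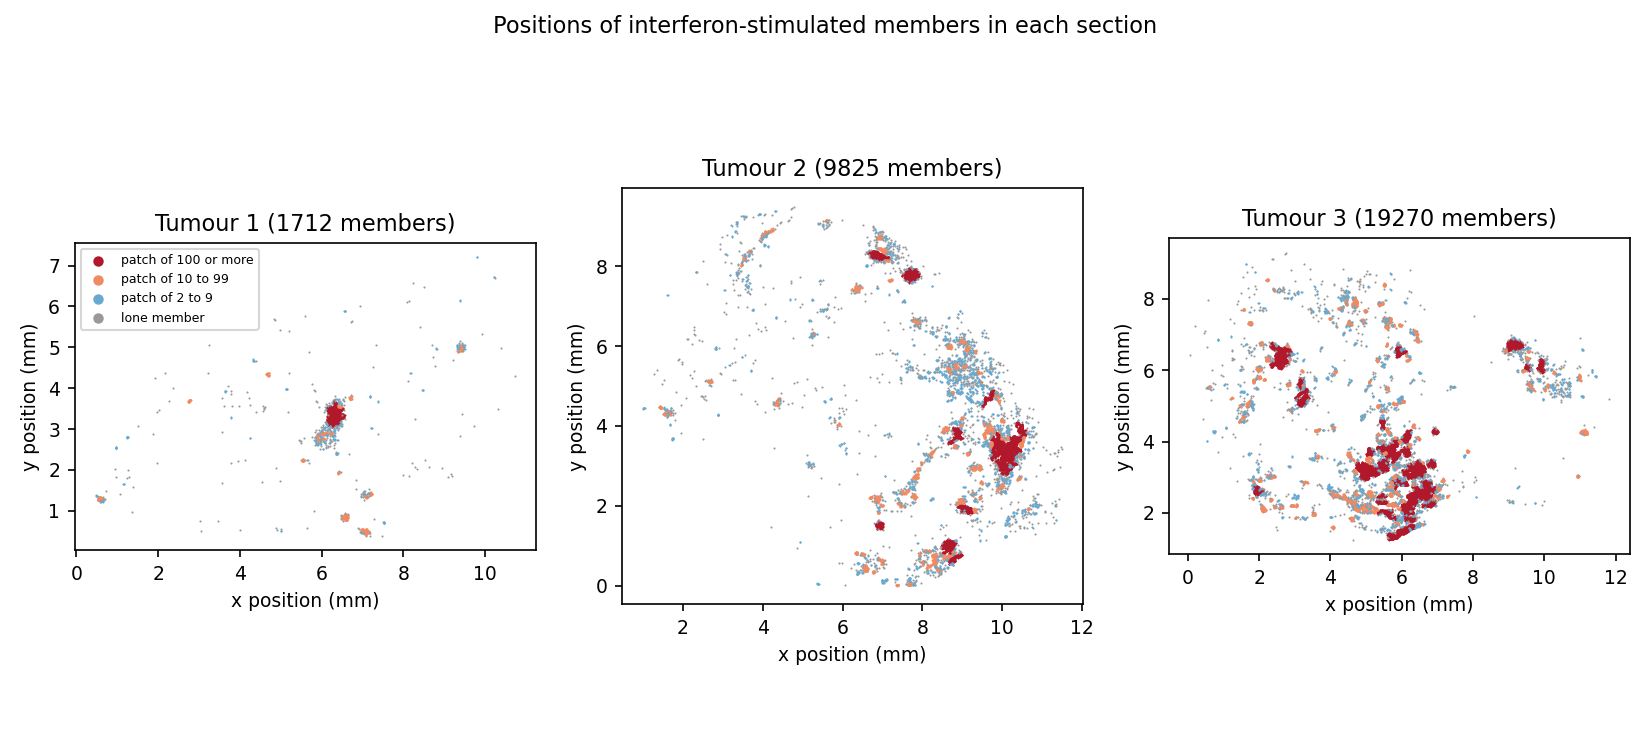
Each dot is a member at its position in the section (mm, axes as deposited), coloured by the size of its patch. Tumour 1 has 1 dense patch of 723 members, whereas tumours 2 and 3 have 13 and 28 patches of 100 or more.

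Around a member, 22.1%, 35.1% and 46.4% of the cells within 25 µm were members in tumours 1, 2 and 3, against 0.0554%, 0.299% and 0.286% around a comparison cell. Relative to the member share of all kept cells, the first values amount to a ratio of 80.1, 16.2 and 16.2. Tumour 1, with the fewest members, gave by far the largest ratio, and the mean of 37.5 falls to 16.2 without it. With 3 tumours the smallest p of an exact sign-flip test is 0.25, so no test of clumping was made.

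Cells with markers of stroma or macrophages made up smaller shares of all neighbours around members in all 3 tumours, in a design too small to pass a test. The rule itself lowers these shares, because many neighbours of members are members and no member can belong to these classes. Cells with at least 2 Adgre1 or Cx3cr1 transcripts made up 2.38%, 2.41% and 0.275% of neighbours of members, against 4.34%, 3.77% and 0.931% of neighbours of comparison cells. Cells with high Col1a1 made up 4.79%, 3.94% and 1.85% against 6.20%, 7.03% and 4.16%, and cells with at least 2 Pecam1 or Cdh5 transcripts 1.92%, 1.63% and 0.929% against 2.38%, 2.32% and 1.06%. The mean log2 ratios were -1.09 ± 0.59, -0.79 ± 0.40 and -0.34 ± 0.17 for macrophage, fibroblast and endothelial cells (SD, n = 3), and the exact sign-flip test gave p = 0.25, its smallest possible value, for each. The median distance to the nearest cell with macrophage transcripts was 29.6, 50.9 and 113.7 µm from members and 23.7, 32.7 and 50.01 µm from comparison cells that met the members' limits. Members made up 22.1%, 35.1% and 46.4% of the neighbours of members, against 0.0554%, 0.299% and 0.286% of those of comparison cells. Shares among neighbours that are not members were not tested, so no depletion of these classes is read from the values. RNA assigned across cell borders was not measured.

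The second comparison asked whether cells beside members also differed. It set non-members with Cdh1 and a member within 25 µm (6131, 14517 and 19164 cells) against such cells with no member within 75 µm (270548, 140435 and 157538 cells). Irf7 was at 33.4, 32.9 and 31.2 in near cells against 2.48, 4.70 and 2.96 in far cells, so the groups were widely apart. The log2 change was 3.36 ± 0.22 (edgeR, adjusted p = 0.00715). Irf9 was at 5.40, 5.27 and 5.67 in near cells against 2.16, 2.89 and 2.55 in far cells (log2 change 1.16 ± 0.14, adjusted p = 0.0177). H2-K1 was at 18.2, 14.9 and 6.29 in near cells against 12.45, 9.56 and 5.14 in far cells (log2 change 0.54 ± 0.09, adjusted p = 0.0341).

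Of 248 genes, 17 were higher near members (6.85%) and 7 lower (2.82%), and 3 of the 17 and 4 of the 7 were above background. Of the 10 interferon genes, 4 were higher (Irf7, Irf9, Cd274 and Cxcl10) with a median log2 change of 0.28, beside 0.01 over all genes. Cd274 and Cxcl10 had log2 changes of 1.25 ± 0.11 and 1.09 ± 0.12 (adjusted p = 0.0104 and 0.0129), at levels of 0.491 and 0.256 in near cells. The highest blank there was at 0.414, 0.388 and 0.308 in tumours 1, 2 and 3. The Cxcl10 level is below each of these, and Cd274 was not above the highest blank in every tumour. Of the 27 blanks, 1 was higher and none lower, with a highest log2 change of 0.54. Irf1 was at 8.96, 8.86 and 8.95 in near cells against 7.34, 7.47 and 7.99 in far cells, which do not overlap, but missed the threshold (log2 change 0.28 ± 0.09, adjusted p = 0.143). Ccl4, a chemokine of the list, was called at a level of 0.221 in near cells, below the highest blank. The lower genes above background were Krt14, Trp63, Mki67 and Ccnd1, with log2 changes from -0.67 to -0.46 and adjusted p from 0.0324 to 0.0497. Without tumour 1 or tumour 2, Irf7 and Cd274 stayed past the threshold while Irf9, H2-K1 and the 4 lower genes did not, and Cxcl10 missed it without tumour 2 (adjusted p = 0.0517). Median depth was 120, 133 and 127 transcripts in near cells and 124, 152 and 137 in far cells.

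Near cells could hold up to 4 transcripts of the 4 genes, or more where they failed another limit of the rule. Limited to cells with none in either group, Irf7 alone passed (log2 change 2.79, adjusted p = 0.0269), while Irf9 had 0.89 (adjusted p = 0.103), H2-K1 0.33 (0.204) and Cd274 0.70 (0.152). Transcripts of a member assigned to the cell beside it would also appear in near cells; this was not tested.

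The difference reached beyond the nearest cells. Among non-members with Cdh1, at 0 to 15, 15 to 25, 25 to 50, 50 to 75, 75 to 150, 150 to 300 and over 300 µm from the nearest member of a patch of at least 10, mean Irf7 was 45.3, 32.5, 25.5, 19.7, 13.6, 7.13 and 3.60. Each tumour showed the same order: tumour 1 had 48.2 in the nearest and 2.55 in the farthest class, tumour 2 had 45.9 and 5.35, and tumour 3 had 41.7 and 2.91. The 4 genes summed, which the rule limits in these cells, stood at 24.2, 13.1, 9.33, 6.54, 4.17, 2.42 and 1.43. Irf9 went through 6.56, 5.76, 5.06, 4.58, 3.87, 3.05 and 2.52. Mki67 ran the other way, with 4.63 in the nearest and 7.17 in the farthest class, and H2-K1 had 14.6 and 8.81. At 75 to 150 µm, several cell diameters from the patch, Irf7 was still at 13.2, 15.8 and 11.7 in tumours 1, 2 and 3, although a lone member or a small patch can lie closer.

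**Figure D4:**
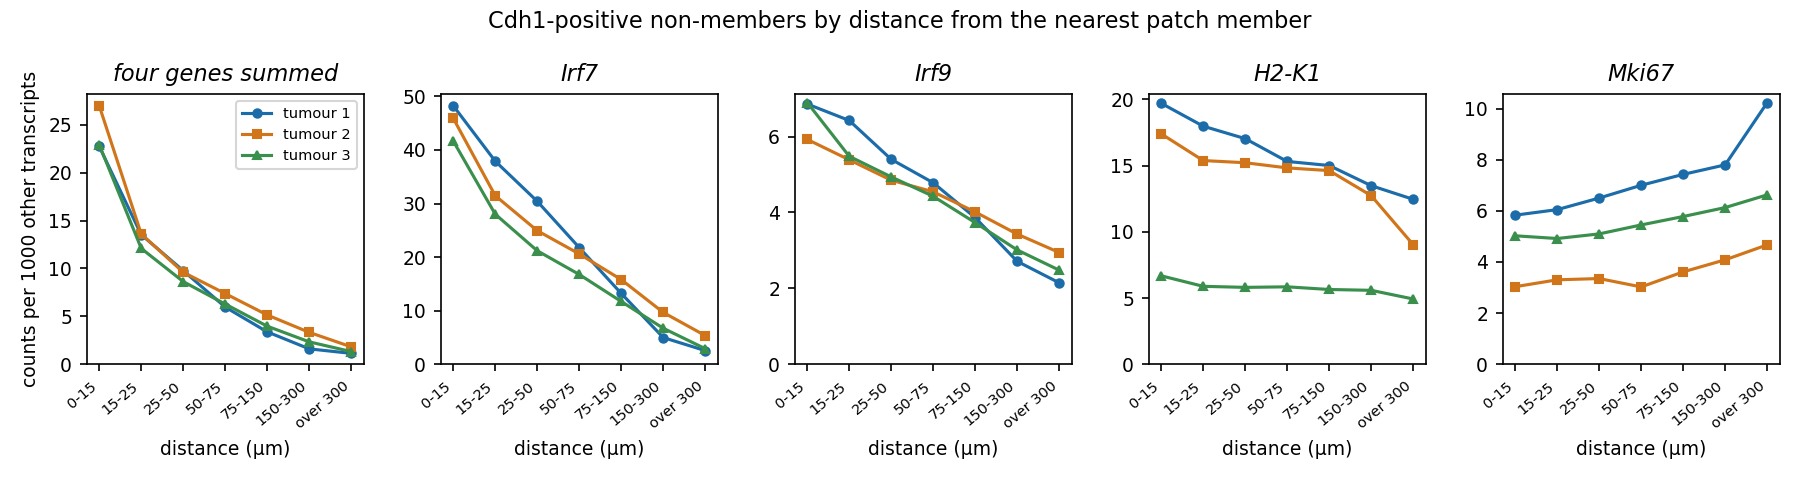
Levels (counts per 1000 other transcripts) of the 4 interferon-stimulated genes summed, Irf7, Irf9, H2-K1 and Mki67 in Cdh1-positive non-members, by distance (µm) from the nearest member of a patch of at least 10, with a line per tumour. Irf7 has a mean of 45.3 within 15 µm and 3.60 beyond 300 µm, and Mki67 means of 4.63 and 7.17.

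The third comparison asked whether members of patches differed from lone members. Both passed the same rule and were split by position. It held 1236, 6672 and 16454 members of patches of at least 10, against 223, 1169 and 1010 lone members. Irf7 was at 61.9, 67.7 and 62.0 in patch members against 40.9, 38.8 and 34.4 in lone members, without overlap. It was the only gene of 248 past the threshold (0.403% higher, 0% lower), with a log2 change of 0.81 ± 0.08 (edgeR, adjusted p = 0.0249), and DESeq2 called 1 gene higher and 1 lower. At an unadjusted p under 0.05, 25 genes were higher and 10 lower in patch members. Without any 1 tumour, no gene passed, and Irf7 had adjusted p of 0.127, 0.258 and 0.559 without tumours 1, 2 and 3.

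Irf9 was at 7.43, 7.36 and 8.40 in patch members against 5.64, 5.68 and 5.27 in lone members, and Irf1 at 11.4, 13.2 and 16.8 against 9.79, 9.34 and 8.84. Neither pair of ranges overlapped, yet neither passed (log2 changes 0.55 ± 0.13 and 0.61 ± 0.16, adjusted p = 0.187 and 0.197). The rule's own genes are given as a description. Mx1 was at 10.8, 26.9 and 38.4 in patch members and 9.18, 4.596 and 8.37 in lone members, while Isg15 was at 30.3, 35.1 and 29.5 in patch members and 23.9, 22.3 and 19.8 in lone members. In tumour 1 the Mx1 levels were close, and in tumours 2 and 3 those of patch members were several times higher. Ccl5 was at 0.117, 0.414 and 0.387 in patch members against 0.610, 0.753 and 0.788 in lone members, and did not pass the test (log2 change -1.15 ± 0.28, adjusted p = 0.187). Its level in patch members was below the highest blank there in tumours 1 and 2 (0.388 and 0.488). Cd274 was at 0.676, 2.37 and 2.10 in patch members against 0.727, 0.748 and 0.731 in lone members. It did not pass either (log2 change 1.24 ± 0.36, adjusted p = 0.219).

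Irf7 was higher in members with more member neighbours. With no member among its neighbours, with up to 25%, 25% to 50%, 50% to 75% and over 75% members, Irf7 in tumour 3 was at 34.4, 45.5, 57.6, 69.8 and 77.3. In tumour 2 it was at 38.8, 51.5, 62.8, 76.4 and 91.6. In tumour 1 it was at 41.3, 55.7, 66.6 and 75.7 in the first 4 classes, and no member there had over 75%. Irf1 in tumour 3 was at 8.85, 10.8, 13.9, 18.5 and 26.1. Mx1 in tumour 3 spanned 8.38 to 91.7 and in tumour 2 4.55 to 71.2, a wider span than that of Isg15 at 19.8 to 40.2 and 22.3 to 50.1. In tumour 1 Mx1 was at 9.26, 8.09, 11.7 and 18.4 in its 4 classes. Cell depth ran the other way in tumours 2 and 3, with median transcripts of 162.5 in the first and 126 in the last class of tumour 3, but not in tumour 1. Patch and lone members also differed in depth in the third comparison, with medians of 154, 146 and 132 against 163, 176 and 162, and in volume, with medians of 714, 759 and 717 µm3 against 779.8, 935 and 932 µm3. The median 4-gene sum was 7, 9 and 9 in patches of at least 100 members and 6, 6 and 5 in lone members. Limited to at least 100 and under 200 transcripts outside the rule, the Irf7 change there was 0.76 (adjusted p = 0.00290), and 5 genes were higher and 1 lower.

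**Figure D5:**
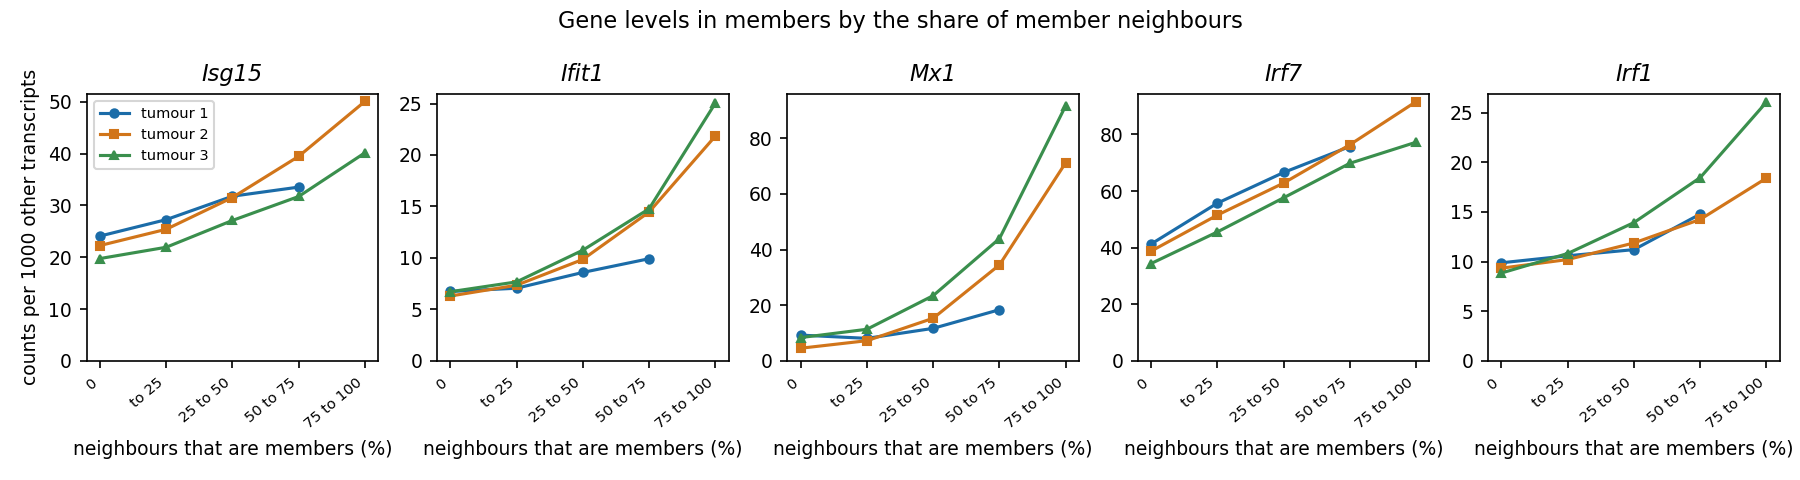
Levels (counts per 1000 other transcripts) of Isg15, Ifit1, Mx1, Irf7 and Irf1 in members, by the percentage of cells within 25 µm that are members, with a line per tumour. Mx1 in tumour 3 is at 8.38 with no member neighbour and 91.7 with over 75%, and tumour 1 has no member in the last class.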

How the data were processed

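Sections of 3 tumours were measured by MERSCOPE, and the deposited tables hold unnormalized transcript counts for each cell. The deposited cell tables give each cell's centre and volume, which served as signal columns without a stated unit; µm and µm3 were assumed from their extent. No source used here names the tools for segmentation or decoding; Scanpy 1.9.3 appears, with no role, per the submitters' processing notes. Gene and blank counts summed to the deposited transcript total in every cell, and no cell ID was shared between sections. No doublet caller was run.

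Members and gene lists were chosen with earlier results of these data known. Counts were summed per tumour and kind of cell (6 sums per comparison) and tested in edgeR 4.0.16 (R 4.3.3) with filterByExpr, TMM normalization and the two-sided quasi-likelihood F-test, with adjusted p under 0.05. The tumour was a block because both kinds of cell come from the same section. SE are derived from the F statistic. The 10 genes of the rule were left out. Genes are named where they are among the 10 largest rises or falls past the threshold with the same sign in all 3 tumours and above background, or are on the interferon, class I, class II, chemokine or NF-kB lists; other lists are given by counts with examples. The fit was also run on simulated counts with known changes. These held no blanks, so they do not speak to calls at blank level. Alternatives covered normalization, DESeq2 1.42.0, filters, thresholds, depth, Cdh1, distances and leaving out tumours. Whether the sections come from separate animals is not stated. The p-values weigh the difference within tumours against its spread over these 3 tumours only. Sequences are from RefSeq.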

Additional observations from a re-analysis of the deposited data

How the results depend on the processing

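The tumour enters each fit as a block, since both kinds of cell share a section. Without this block, calls for members against comparison cells numbered 16 in place of 33, for near against far cells 4 in place of 24, and for patch against lone members 0 in place of 1. Leaving out 1 tumour at a time gave 6 to 46 calls in the first comparison, 3 to 17 in the second and 0 in the third; leaving out tumour 1 or 2 gave 7 and 6 calls in the first and 4 and 3 in the second. DESeq2 called 103, 70 and 2 genes. In the first comparison a limit of 5% of transcripts gave 60 calls. In the second, calls numbered 15 at at least 100 and under 200 transcripts, 14 with distances from patch members (added after seeing the data), 6 at a 4-gene sum of at least 3, and 1 with no transcript of the 4 genes in either group. In the third they numbered 6 at at least 100 and under 200 transcripts, 5 at a sum of at least 3, 11 at a sum of at least 8, 0 with the limit of 5%, 0 with the rule's genes kept in the fit, 2 at a link of 50 µm and 2 for members with Cdh1. The member share averaged 3.59% at a sum of at least 3, 0.878% at a sum of at least 8, 1.07% with the limit of 5% and 0.852% for members with Cdh1, in place of 1.77%. The ratio of member neighbours averaged 19.1 at a sum of at least 3, 62.0 with the limit of 5% and 71.2 at a sum of at least 8, in place of 37.5. The share of members in patches averaged 51.3% at a link of 15 µm, 89.0% at 50 µm and 57.0% for members with Cdh1, in place of 75.2%. Leaving out 1 tumour, the member share averaged 1.22% to 2.51%, the share in patches 70.1% to 78.8% and the ratio of member neighbours 16.2 to 48.2. Of the values of single genes under the alternatives, 1441 kept their side of the threshold and their direction where called, 131 lost the call, 49 gained it and 0 turned direction while called. Depth limits what is said of genes below the blanks, and 3 tumours limit every test.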

Other observations

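Cells left out of the members by the limits on other cell types also held interferon-stimulated transcripts. Among all kept cells, 2130, 11603 and 21059 had a 4-gene sum of at least 5 in tumours 1, 2 and 3. These were out of 619770, 453995 and 673638 kept cells and include the members. A 4-gene sum of at least 5 was reached by 0.339%, 2.25% and 1.63% of cells with at least 2 Adgre1 or Cx3cr1 transcripts in tumours 1, 2 and 3, by 0.282%, 1.44% and 3.43% of cells with at least 2 Pecam1 or Cdh5 transcripts, and by 0.196%, 0.620% and 0.914% of cells with high Col1a1. Irf7, the transcription factor that amplifies the interferon response, was at 2.94, 7.83 and 6.16 counts per 1000 in the macrophage class, 2.16, 5.64 and 7.50 in the endothelial class and 2.14, 6.35 and 4.21 in the cells with high Col1a1, against 3.80, 10.7 and 9.26 in all kept cells. The Irf7 level of each class was thus below that of all kept cells in each tumour, but all kept cells include the members. In Cdh1-positive cells that pass the limits and hold none of the 4 genes, Irf7 was at 2.78, 5.63 and 3.81. These cells were chosen to lack the 4 genes, and Irf7 rose with the 4-gene sum in Cdh1-positive cells. The classes had no such limit, so the 2 sides were not chosen alike. The macrophage class was above these levels in each tumour. The endothelial class and the cells with high Col1a1 were below them in tumour 1 and above them in tumours 2 and 3, the endothelial class of tumour 2 only just.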
